A study of Danio rerio with 4 samples.

Results

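Cytosolic ribosomal protein genes encode the proteins that are assembled with ribosomal RNA into the small and large ribosomal subunits of the cytoplasm. They were taken from the deposited expression table by symbol, as rpl or rps followed by a number, rplp followed by a number, or rpsa, without the rps6k kinases. The rule found 81 genes among the 19661 genes of the table. Of these, 43 were large subunit genes (rpl), 34 were small subunit genes (rps, *rpsa* included) and 4 encoded the acidic stalk proteins of the large subunit (*rplp0*, *rplp1*, *rplp2* and *rplp2l*). The symbol, not a measured value, chose the members.

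The table came from hearts dissected from zebrafish at 48 hours postfertilization (hpf). Mutants were homozygous for *bns577*, an 11 bp deletion in *egr3* that disrupts a zinc-finger transcription factor in every tissue of the embryo, and the controls were wild-type (*bns577*+/+) siblings. Each genotype had 2 pools of 20 hearts, sequenced as 1 library each, so p-values here rest on 2 pools per genotype. Those of limma are too small, for a reason given below. The heart at this stage beats and has an atrium, a ventricle and an atrioventricular canal between them, with myocardium lined by endocardium. Every value is a sum over its cells, in which fewer cells of a type and less RNA per cell cannot be told apart.

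A ribosome holds 1 copy of most of its proteins, and their genes are transcribed in nearly every growing cell at high and balanced levels. In vertebrates their mRNAs begin with a terminal oligopyrimidine (TOP) tract, through which the kinase mTOR and the RNA-binding protein Larp1 adjust their translation together. Fish, after a genome duplication in their ancestry, kept a second copy of a few of these genes, and some vertebrate ribosomal proteins have an older paralog marked by "l" or "l1" in the symbol. Loss of 1 copy of several of these genes causes Diamond-Blackfan anemia in humans.

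The symbols did not delimit the ribosome exactly. By annotation, 80 members were protein coding and *rps20* was listed as a processed transcript, and 75 carried the KEGG term for the ribosome. The rule also took *rps19bp1*, which encodes a binding partner of the S19 protein and not a subunit protein, and *rpl7l1*, *rpl22l1* and *rps27l*, which encode paralogs of ribosomal proteins. *rps27a* encodes a fusion of ubiquitin and a small subunit protein. The symbol *rpl37* stood for 2 genes, on chromosome 2 and chromosome 21. Members lay on 25 chromosomes, with no more than 7 on any one.

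Values are the normalized counts deposited by the authors, for which normalization with DESeq2 is stated, as whole numbers. Library totals on this scale ran from 9161759 to 9481943. The count of *egr3* itself was 528 and 537 in wild-type pools and 873 and 889 in mutant pools (adjusted p = 0.122, limma). Its direction does not check the labels, since the deletion leaves a transcript that can still be counted. Its counts did group the libraries as the GEO labels do. Wild-type replicate 2 stood apart in skin: 7 keratin and other skin genes, all detected, summed to 19323 normalized counts there against 3575 in wild-type replicate 1 and 4316 and 1205 in the mutants. Hatching gland genes summed to 1432 and 1758 in wild-type pools and to 27 and 21 in mutant pools, and neuronal genes to 315 and 394 against 582 and 503. Ionocyte genes summed to 1807 and 2461 against 1555 and 1527, most of it from *atp6v1aa* (1634 and 1718 against 1531 and 1508), and all 6 were lower in both mutants, with a median log2 fold change of -2.46. The defining markers of myocardium summed to 18779 and 20635 in wild types and 19774 and 18578 in mutants, although both mutants were below both wild types for 6 of the 7, with a median log2 fold change of -0.09. Not every marker symbol searched was in the table: 6 of 7 were found for myocardium, 3 of 4 for hatching gland and 2 of 4 for liver and yolk. None of the markers found was at 0 in every library. The study's processing sheet names the libraries behind wild-type replicate 2 and mutant replicate 2 with the genotypes exchanged. Genotypes are those of the GEO labels, and values without both libraries are given below where they differ. By the exchanged names, *egr3* would have 528 and 889 normalized counts in wild types and 537 and 873 in mutants. Hatching gland genes would sum to 1432 and 21 against 1758 and 27.

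By the GEO labels, the ribosomal protein genes as a group differed little between *egr3* mutant and wild-type hearts. Their summed counts made up 0.776% and 0.805% of the wild-type libraries and 0.836% and 0.800% of the mutant libraries. The range of the mutants lay above wild-type replicate 1 and overlapped wild-type replicate 2. The mean was 0.791% ± 0.0203 in wild types and 0.818% ± 0.0251 in mutants (SD over 2 pools), a difference of 0.0275 percentage points. In an exact two-sided permutation test over the 4 libraries p was 0.667, and 2 pools against 2 cannot give a p under 0.333. Without replicate 2 of both genotypes the difference was 0.0596 percentage points. By the processing sheet's genotypes, the shares would be 0.776% and 0.800% in wild types and 0.805% and 0.836% in mutants, without overlap. Which names are right was not tested. The median member had 802 and 860 normalized counts in wild-type pools and 862 and 839 in mutants.

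Gene by gene, no member passed the test across all genes. Over the 17501 genes whose mean reached 5, limma on log2 of the normalized count plus 1, adjusted by Benjamini-Hochberg, called 1 gene at an adjusted p under 0.05, or 0.00571% of those tested. That gene was the hatching enzyme gene *he1.1*, with 987 and 1063 normalized counts in wild-type pools and 17 and 16 in mutants. Few large differences could pass this test. A second hatching enzyme gene, *he1.2*, with 280 and 388 against 2 and 1, was not called either (adjusted p = 0.122, limma). The study's own test gave more genes at its adjusted threshold. All 81 members were tested and 0 were called, the lowest adjusted p being 0.130. A gene that was not called is thus not shown to be unchanged. At an unadjusted p under 0.05, 7 members were higher in mutants, against a background of 10.8% of all genes tested, and 0 were lower, against 10.8%. The 7 of 81 were thus no larger a share than the background. Fewer members were higher at this threshold, and fewer of all genes passed it, when any 1 library was left out. Those fits leave 1 pool in a genotype.

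The log2 fold change, mutant minus wild type, had a median of 0.04 over the members, with 54 above 0 and 27 below, and ran from -0.08 to 0.63. Over all genes tested the median was -0.0007. Leaving out wild-type replicate 2 moved the members' median to 0.10, leaving out mutant replicate 2 to 0.07, and leaving out mutant replicate 1 to 0.02. Leaving out wild-type replicate 1 turned its sign, to -0.0058. In the same order, the medians of all genes tested were 0.012, -0.013, 0.009 and -0.015. The members' median was above that of all genes in each of these fits. Both mutants were above both wild types for 24 members, against 24.7% of all genes tested, and both were below for 13, against 25.8%. In the other 44 members the genotypes overlapped. These counts changed when 1 library was left out. Non-overlap is then met more easily and the share of all genes was not counted, so nothing is concluded from the changed counts.

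Most members differed by very little. An absolute log2 fold change under 0.1 was found for 61 members, or 75.3%, and for 31.0% of all genes tested. The SD of the log2 fold change was 0.113 over the members and 0.643 over all genes tested. The 43 large subunit genes had a median log2 fold change of 0.06, with both mutants above both wild types in 13 and below in 6. For the 34 small subunit genes the median was 0.04, with 10 above and 5 below. The 4 stalk genes had a median of -0.02, with 1 above and 2 below. Over all genes tested, both mutants were above in 24.7% and below in 25.8%. In the plot of members by library, the genes with the highest fold changes separate the genotypes while most others interleave.

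**Figure D1:**
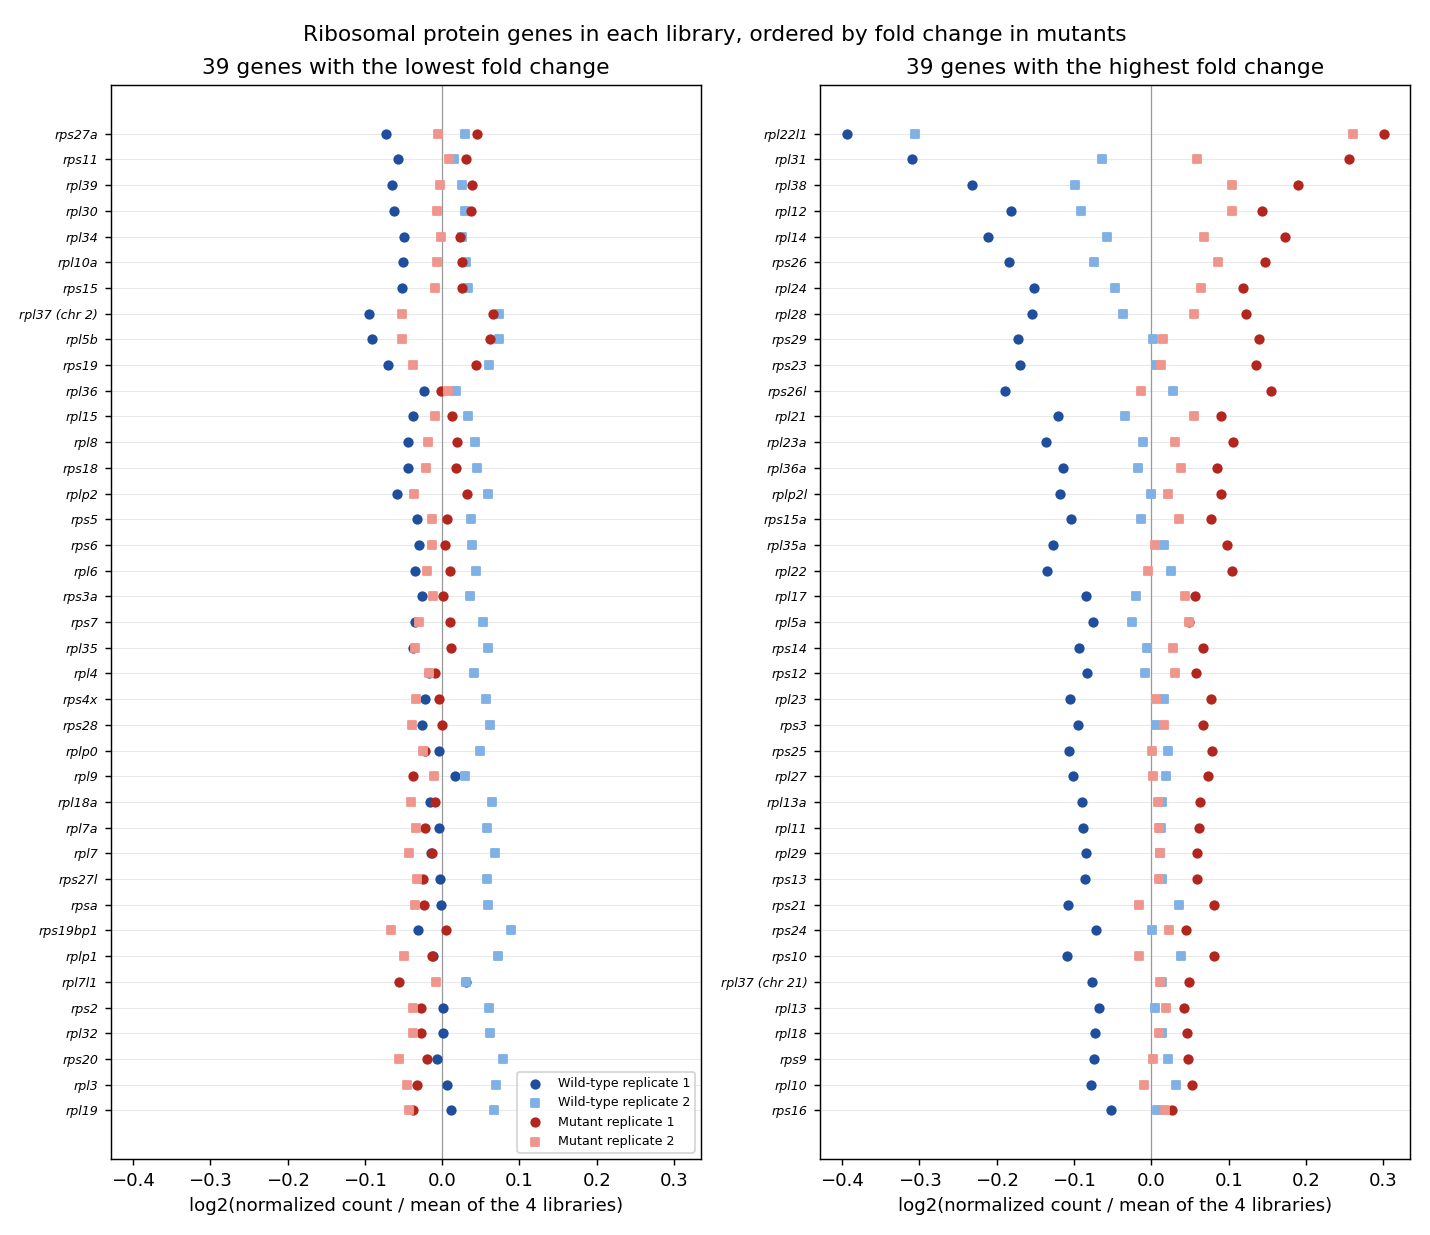
Normalized count of 78 members in each library, as log2 of its ratio to the mean of the 4 libraries (x axis), with genes in order of fold change (y axis). Blue points are wild-type pools and red points mutant pools, circles for replicate 1 and squares for replicate 2. *rpl22l1*, at the top right, is the member whose genotypes lie farthest apart.

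*rpl22l1* (chromosome 24, 26475182 to 26479841, danRer11, minus strand) had the largest difference. It encodes a paralog of Rpl22, an RNA-binding protein of the large subunit. In mouse, Rpl22 restrains the expression of its paralog, and in zebrafish both take part in the emergence of blood cells. *rpl22l1* had 207 and 220 normalized counts in the wild-type pools and 335 and 326 in the mutants. The mutants were thus 1.55-fold higher, a log2 fold change of 0.63 ± 0.07 (SE), and the genotypes did not overlap. In limma the unadjusted p was 0.00163 and the adjusted p 0.130, so it was not called. It was the 1 member past 1.5-fold in either direction, a size that 9.77% of all genes tested passed upward. By the processing sheet's genotypes, its counts would be 207 and 326 in wild types and 220 and 335 in mutants, with overlap.

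*rpl22* itself (chromosome 11, 29650011 to 29658396, minus strand) had 616 and 688 normalized counts in wild-type pools and 727 and 674 in mutants. Its genotypes overlapped, and its log2 fold change was 0.10 ± 0.08 (SE), with an adjusted p of 0.519 in limma. Without replicate 2 of both genotypes it was 0.24. Of the reads on both genes, those on *rpl22l1* made up 25.2% and 24.2% in wild types and 31.5% and 32.6% in mutants. The means were 24.7% ± 0.653 and 32.1% ± 0.747 (SD over 2 pools). An exact two-sided permutation test gave p = 0.333, the smallest that 2 pools against 2 can give. With the processing sheet's genotypes, the shares would be 25.2% and 32.6% in wild types and 24.2% and 31.5% in mutants, with overlap.

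The other 6 members with an unadjusted p under 0.05 were all higher in both mutants, and by less than 1.5-fold. *rpl38*, which in mouse is needed for the translation of Hox mRNAs, had 260 and 285 normalized counts in wild-type pools and 348 and 328 in mutants, a log2 fold change of 0.31 ± 0.08 (SE) with an adjusted p of 0.179 in limma. *rpl12*, whose protein sits with Rplp0 at the base of the stalk, had 717 and 763 against 898 and 874, a log2 fold change of 0.26 ± 0.05 (SE) with an adjusted p of 0.147. *rpl14*, a large subunit gene, had 468 and 521 against 611 and 568. The mutants were 1.19-fold higher for *rpl14* (adjusted p = 0.226). Its log2 fold change was 0.25, and 0.38 without replicate 2 of both genotypes.

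*rps26*, whose protein lies where the mRNA leaves the ribosome, had 442 and 477 normalized counts in wild-type pools and 556 and 533 in mutants. It is a Diamond-Blackfan anemia gene in humans, and its adjusted p in limma was 0.184. *rpl24*, whose protein bridges the subunits, had 544 and 585 against 656 and 632 (adjusted p = 0.226). In each of these genes wild-type replicate 1 was the lowest library and mutant replicate 1 the highest.

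*rpl31*, whose protein lies at the exit of the peptide tunnel, had the second largest log2 fold change, 0.34 ± 0.13 (SE). Its normalized counts were 381 and 452 in wild types and 564 and 492 in mutants, with an adjusted p of 0.251 in limma. The pools of a genotype differed by up to 0.25 on the log2 scale, so the distance from wild-type replicate 2 to mutant replicate 2 was smaller than that between the pools of either genotype, and without replicate 2 of both genotypes the log2 fold change was 0.56. *rpl28*, *rps29*, *rps23* and *rpl21* followed, with log2 fold changes of 0.18, 0.16, 0.16 and 0.15 and both mutants above both wild types. *rps26l*, the paralog of *rps26*, had a log2 fold change of 0.15, but its wild-type replicate 2 (565 normalized counts) was above its mutant replicate 2 (549), and without replicate 2 of both genotypes its log2 fold change was 0.34.

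Members with a lower mean in mutants differed by much less. *rpl19*, a large subunit gene, had 1329 and 1381 normalized counts in wild-type pools and 1284 and 1280 in mutants, a log2 fold change of -0.08 ± 0.04 (SE) with an adjusted p of 0.335 in limma. *rpl3*, whose protein reaches toward the peptidyl transferase center, had 2544 and 2657 against 2476 and 2454, also -0.08 (adjusted p = 0.304). *rps2*, of the small subunit, had 1731 and 1804 against 1697 and 1685. In all of these both mutants were below both wild types, by less than 6%. *rps20* (954 and 1012 against 945 and 922) and *rpl32* (926 and 966 against 908 and 901) had log2 fold changes of -0.07 and -0.06 and were the other members at the lower end.

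The stalk recruits the elongation factors to the ribosome, and its genes did not move as one. *rplp0*, the scaffold of the stalk, had 2008 and 2082 normalized counts in wild-type pools and 1983 and 1979 in mutants. *rplp1* had 915 and 970 against 914 and 892, with log2 fold changes of -0.05 for *rplp0* and -0.06 for *rplp1*. For *rplp2* (717 and 778 against 763 and 728) the genotypes overlapped. The second *rplp2* gene, *rplp2l*, had 541 and 587 against 625 and 596, both mutants being higher, with a log2 fold change of 0.11 and an adjusted p of 0.407 in limma. *rpsa*, the laminin receptor homolog of the small subunit, had 1990 and 2077 against 1960 and 1944, a log2 fold change of -0.06 ± 0.04 (SE).

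The proportions within the other pairs of related genes were closer between genotypes, and apart from the stalk pair they overlapped. *rplp2l* made up 43.0% of the reads on *rplp2* and *rplp2l* in each wild-type pool and 45.0% in each mutant pool (exact two-sided permutation p = 0.333, the smallest possible). *rpl5b* made up 48.0% ± 1.41 of the *rpl5a* and *rpl5b* reads in wild types and 46.5% ± 1.40 in mutants. *rps26l* made up 53.3% ± 1.31 of its pair in wild types and 51.7% ± 1.32 in mutants. The share of *rpl7l1* beside *rpl7* was 45.3% ± 0.992 in wild types and 45.2% ± 0.966 in mutants. For these 3 pairs the ranges of the genotypes overlapped, with an exact two-sided permutation p of 0.667 each.

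*rpl5a* and *rpl5b* encode the protein that, bound to ribosomal RNA together with Rpl11, can hold back Mdm2. *rpl5a* had 1379 and 1427 normalized counts in wild-type pools and 1502 in each mutant pool, a log2 fold change of 0.10 ± 0.04 (SE) with an adjusted p of 0.251 in limma. *rpl5b* had 1222 and 1370 against 1359 and 1255, and *rpl11* had 816 and 875 against 905 and 873. The genotypes overlapped for both. *rpl7* (1477 and 1563 against 1478 and 1447) and its relative *rpl7l1* (1260 in each wild type, 1186 and 1227 in the mutants) each had a log2 fold change of -0.06.

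The authors removed reads that map to more than 1 place, so reads shared by near-identical copies were lost to both and the true balance within a pair is uncertain.

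**Figure D2:**
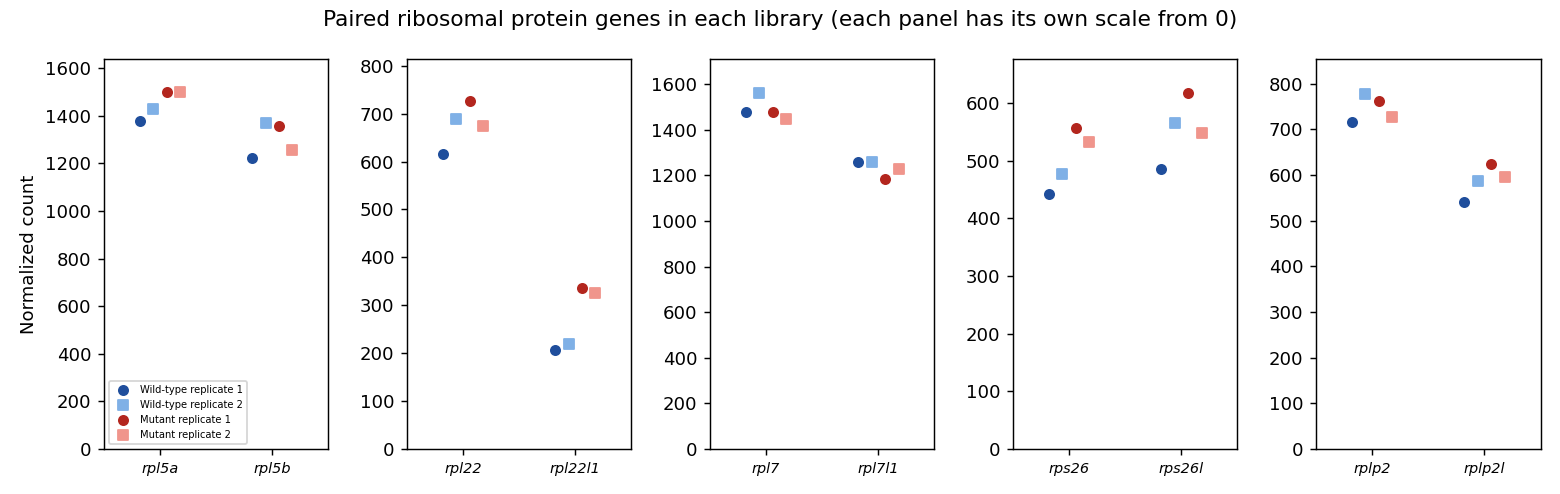
Normalized counts (y axis, from 0, scaled per panel) of both genes of 5 pairs of related ribosomal protein genes in each of the 4 libraries. For *rpl22l1* the mutant pools (335 and 326) stand clear of the wild-type pools (207 and 220), while for *rpl5b* and *rps26l* the genotypes interleave.

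Of the members, 3 lay on chromosome 8 with *egr3* (50727220 to 50733508), from 27.0 to 48.2 Mb away, and for all 3 the genotypes overlapped. *rpl10a* (23738122 to 23742985), which encodes the protein of the L1 stalk, had 1195 and 1265 normalized counts in wild-type pools and 1260 and 1232 in mutants. *rpl6* (2493794 to 2506384), a large subunit gene, had 1380 and 1458 against 1424 and 1395.

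For such abundant transcripts, the counts of the members were modest. The highest mean counts belonged to *rpl3*, *rpl4* (2128 and 2215 normalized counts in wild-type pools, 2139 and 2127 in mutants), *rplp0*, *rpsa* and *rps2*. The highest value of any member was 2657, whereas the highest in the table was 11912. None of the members was among the 100 genes of highest mean (0 of 81), 3 were among the first 1000, and the median rank was 3639. A mean between 500 and 2000 was found for 69 members.

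The authors removed duplicate reads, and a single-end read counts as a duplicate when another read starts at the same position. The number of reads a gene can keep is thus limited by the start positions its transcript offers, so a short and abundant mRNA reaches its limit first. The size of that limit was not worked out. The 5 globin genes, also short and abundant, had means from 228 to 1193 normalized counts. Their median was 648.5, beside 843.5 for the members. The highest was *hbae3*, an alpha globin of embryonic red cells, with 1182 and 1213 normalized counts in wild-type pools and 1183 and 1193 in mutants. Fold changes of members may therefore be compressed, and the part of duplicate removal in their small size was not tested. Counts were not divided by transcript length, so the order of members by count is not an order of expression.

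The counts followed the numbers in the symbols, which run roughly from the larger to the smaller proteins of each subunit. Large subunit genes numbered from 1 to 9 had a median mean count of 1433 (10 genes), those from 10 to 19 of 1044 (12 genes), those from 20 to 29 of 676 (9 genes) and those from 30 to 39 of 609 (12 genes). Small subunit genes went down in the same order, from 1258 (10 genes) through 793 (12 genes) to 637 (11 genes). Across genes, Spearman's rho between the mean count and the number was -0.73 over 43 large subunit genes and -0.62 over 33 small subunit genes. Pearson's r, taken on log2 of the mean count, was -0.54 and -0.23. These are descriptions over genes that share the same 4 libraries, and genes are not independent replicates. *rpl9* (109 and 110 normalized counts in wild-type pools, 105 and 107 in mutants) lay far below the others of similar number.

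**Figure D3:**
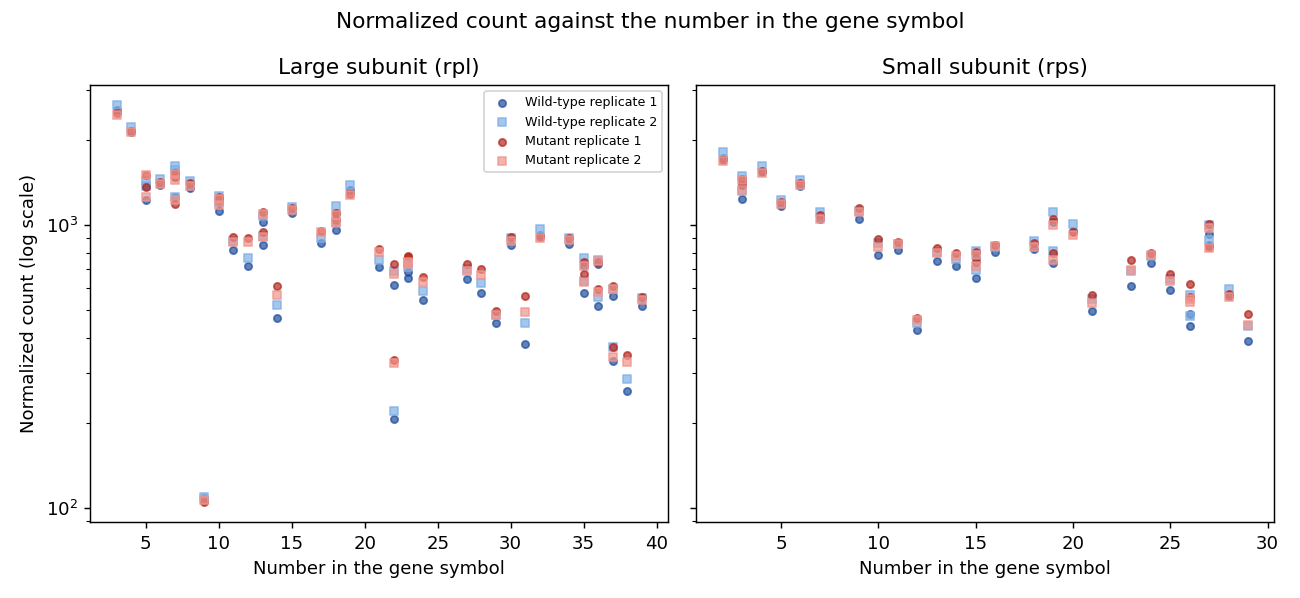
Normalized count (y axis, log scale) of large subunit genes (left) and small subunit genes (right) in each library against the number in its symbol (x axis). Counts go down from *rpl3* and *rps2* at the left toward the highest numbers, with *rpl9* far below the rest of its panel.

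The size of the fold change went with the level of the member. The 8 members with a mean from 100 to 500 had a median log2 fold change of 0.13, with both mutants higher in 5 and lower in 1. For the 45 members from 500 to 1000 the median was 0.07 and the SD 0.086, with both mutants higher in 16 and lower in 5. For the 27 members of at least 1000 the median was -0.01 and the SD 0.051, with 3 higher and 7 lower. Spearman's rho between the log2 fold change and the mean count was -0.63 over the 81 members, and -0.12 over the 10889 other genes with a mean of at least 100. Pearson's r, taken on log2 of the mean count, was -0.41 and -0.06.

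Other genes of the same level leaned the same way, less steeply and with a wider spread. Other genes with a mean from 100 to 500 had a median log2 fold change of 0.03 (5275 genes), those from 500 to 1000 of 0.0048 (2621 genes) and those of at least 1000 of -0.05 (2993 genes). Their SDs were 0.449, 0.265 and 0.153. Of the other genes of at least 1000, both mutants were lower in 44.5% and higher in 15.4%, beside 7 and 3 of the 27 members. From 500 to 1000 the shares of other genes were 25.3% lower and 25.7% higher, beside 5 and 16 of the 45 members. From 100 to 500 they were 22.2% lower and 28.6% higher, beside 1 and 5 of the 8 members.

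**Figure D4:**
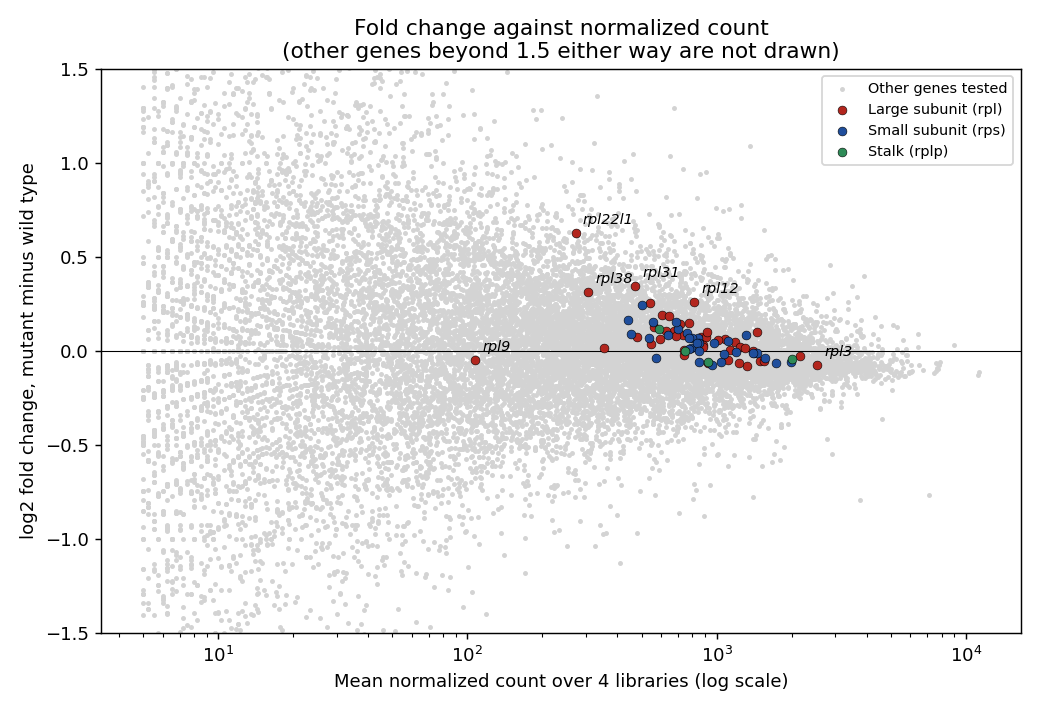
log2 fold change, mutant minus wild type (y axis), against the mean normalized count over the 4 libraries (x axis, log scale), for large subunit (red), small subunit (blue) and stalk genes (green) and all other genes tested (grey). The members lie in a narrow band that slopes from *rpl22l1*, *rpl31* and *rpl38* at the upper left to *rpl3* at the lower right.

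Between pools of the same genotype the members moved together. Wild-type replicate 2 was above wild-type replicate 1 for 79 members, against 55% of all genes tested, by a median of 6.30% over the members. Mutant replicate 1 was above mutant replicate 2 for 76 members, against 45.7%, by a median of 2.74%. Both held for 76 members, against 45.5% of all genes tested. Among the 5 exceptions were *rpl36* (729 and 750 normalized counts in wild-type pools, 740 and 745 in mutants), *rpl7l1*, *rpl9* and *rpl5a*. The counts for wild types, for mutants and for both are not independent, since the genotypes mirrored each other over all genes, as given below. Of the 5614 other genes with a mean of at least 500, wild-type replicate 2 was above 1 in 64.2%, and both held in 46.4%. By the processing sheet's genotypes, wild-type replicate 2 and mutant replicate 1 would both be mutants. The common order would then lie between genotypes, not within them. Of the 24 members with both mutants above both wild types, 23 had mutant replicate 1 highest, then mutant replicate 2, wild-type replicate 2 and wild-type replicate 1. The share of all genes with this order was not counted, so it is not given as a trait of the members.

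The sums of skin genes and of myocardial genes had the same order within each genotype as the members, wild-type replicate 2 above 1 and mutant replicate 1 above 2. The largest counts of the myocardial sum were those of *myh6* (8169 and 9625 in wild types, 9652 and 8481 in mutants). *myl7*, *nppa* and *actc1a* on chromosome 20 also had this order. In *tnnt2a*, *cmlc1* and *actc1a* on chromosome 19, mutant replicate 2 was above 1. Endocardial and endothelial genes summed to 15583 and 14258 in wild types and 14464 and 16389 in mutants, and genes of macrophages and neutrophils to 4048 and 3183 against 3352 and 4413, the opposite order. Red cell genes summed to 3318 and 3408 against 3358 and 3385. The part of cell composition in the members' order and in their fold changes was not tested.

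The 2 pools of a genotype mirrored those of the other. The log2 difference between replicates 1 and 2 in wild types and that in mutants lay along 1 descending line, not always equal in size, with Pearson's r of the deviations of -0.987 over all 17501 genes tested and -0.9998 over the 81 members. The 4 values of a gene thus carry 1 independent residual where the fit counts 2 residual degrees of freedom, and the p-values here are too small for that reason. Whether a step beyond division by a library factor was applied to the values before deposit is not given in the sources used here.

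**Figure D5:**
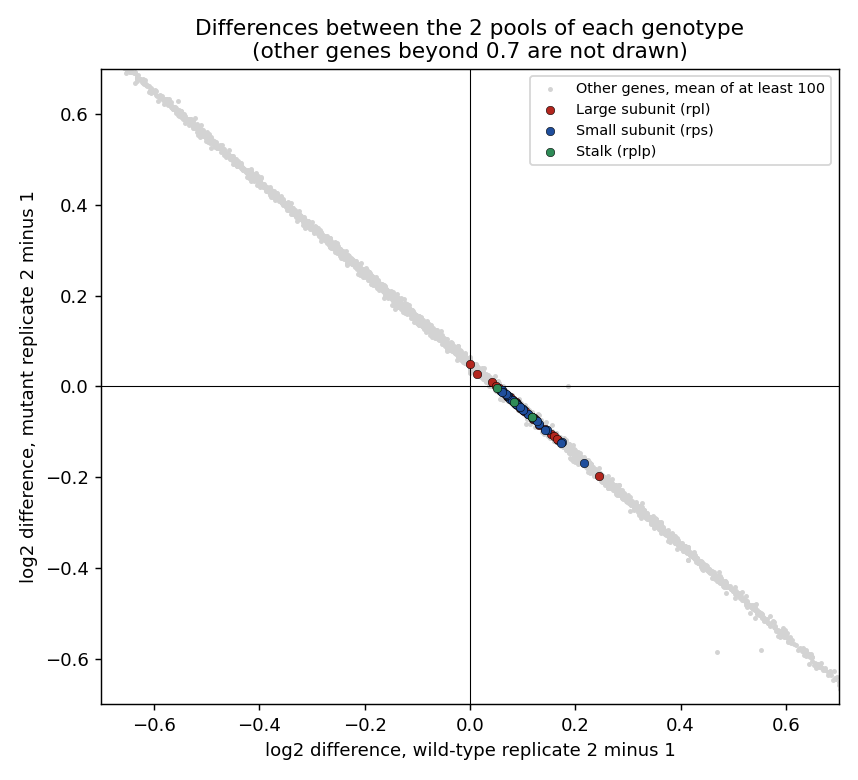
log2 difference between the pools of a genotype, replicate 2 minus replicate 1, in wild types (x axis) and in mutants (y axis), for the 3 classes of members (colors) and other genes with a mean of at least 100 (grey). All genes fall close to 1 descending line, and 74 of the 78 members drawn lie at the lower right, high in wild-type replicate 2 and low in mutant replicate 2.

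Ribosomal proteins whose symbols lie outside the rule were also close between genotypes. The 6 found, among them *faua*, *faub*, *rps27.1*, *rps27.2* and *rack1*, had a median log2 fold change of 0.01, and none passed an unadjusted p under 0.05 in limma. *rack1*, a scaffold on the small subunit, had 1791 and 1884 normalized counts in wild-type pools and 1857 and 1827 in mutants. The 74 mitochondrial ribosomal protein genes, which serve the separate ribosome of the mitochondrion, had a median of 0.02, with both mutants higher in 20 and lower in 16. Over all genes tested both mutants were higher in 24.7% and lower in 25.8%. The within-genotype order of the cytosolic genes was seen in 57 of the mitochondrial genes, against 45.5% of all genes tested. At an unadjusted p under 0.05, 4 mitochondrial genes were higher and 1 was lower, against 10.8% of all genes tested in each direction. Among them *mrps25* (1352 and 1312 against 1828 and 1950) had the lowest adjusted p of the list, 0.126.

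Other parts of the translation machinery also differed by little between genotypes. The 8 elongation factor genes tested had a median log2 fold change of -0.05, with both mutants lower in 5 and higher in 0. *eef1a1l1*, which delivers aminoacyl-tRNA to the ribosome, had 3074 and 3192 normalized counts in wild-type pools and 3019 and 3010 in mutants, and *eef2b*, which drives translocation, 4969 and 5141 against 4883 and 4887. The 16 subunit genes of initiation factor eIF3 had a median of 0.07, with both mutants higher in 9 and lower in 2. Over all genes tested both mutants were higher in 24.7% and lower in 25.8%. Of the eIF3 genes, *eif3f* (796 and 838 against 957 and 942), *eif3eb* and *eif3i* were higher at an unadjusted p under 0.05, against 10.8% of all genes tested. The lowest adjusted p of the list was 0.156.

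Genes that control ribosomal protein output were examined in the same fit, and none passed the adjusted threshold. Of 24 genes of TOP mRNA regulation, 1 was higher (*hnrnpa1b*) and 4 were lower (*eif4ebp2*, *larp4ab*, *cnbpa* and *cnbpb*) at an unadjusted p under 0.05, and the median log2 fold change was -0.05. At this threshold the background was 10.8% of all genes tested in each direction. *mtor* had 447 and 524 normalized counts in wild-type pools and 425 and 375 in mutants. *larp1* had 131 and 208 against 223 and 145, with overlapping genotypes. Of the 9 kinases of the rps6k family tested, 2 were higher, among them *rps6kb1a*, an S6 kinase gene, with 311 and 309 against 356 and 370. Its paralog *rps6kb1b* had 1309 and 1058 against 1018 and 1304, with overlapping genotypes. The S6 kinase substrate gene *rps6* had 1373 and 1440 against 1406 and 1389, a log2 fold change of -0.01.

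Of 60 ribosome biogenesis genes, 2 were higher and 6 lower at an unadjusted p under 0.05, with a median log2 fold change of -0.03. The background was 10.8% of all genes tested in each direction, so neither count was a larger share. Those lower included *nop56* (2510 and 2528 normalized counts in wild-type pools, 2280 and 2343 in mutants) and *nop58* (2532 and 2543 against 2272 and 2342), core proteins of the particles that methylate ribosomal RNA. Of 10 genes of RNA polymerase I and its factors, which transcribe ribosomal RNA, *polr1a* was higher (316 and 337 against 441 and 428) and *rrn3* lower (654 and 601 against 465 and 523) at that threshold. *mycn*, a transcription factor that drives ribosomal protein genes, had 2296 and 2246 against 1905 and 2016, and *mycb* had 972 and 932 against 765 and 825. *mxd1*, which encodes an antagonist of Myc, had 11 and 13 against 27 and 24. The lowest adjusted p among the 7 genes of this Myc list was 0.145.

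The p53 list was read because loss of single ribosomal proteins stabilizes p53 in zebrafish and mammals. Of its 12 genes, 3 were higher (*tp53inp1*, *baxa* and *sesn1*) and 2 lower (*cdkn1a* and *ccng1*) at an unadjusted p under 0.05, and the median log2 fold change was -0.04. At this threshold the background was 10.8% of all genes tested in each direction. *cdkn1a*, which arrests the cell cycle, had 264 and 262 normalized counts in wild-type pools and 188 and 196 in mutants (adjusted p = 0.134, limma). *mdm2*, which encodes the ligase that degrades p53, had 979 and 911 against 816 and 909. None of these genes passed the adjusted threshold.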

How the data were processed

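RNA from 4 pools of 20 dissected hearts was amplified with SMART-Seq v4 and sequenced as single-end reads. Per the labels and the study's methods, the authors trimmed reads with Trimmomatic (version 0.39), aligned them to danRer11 with STAR (2.7.10a), removed duplicates with Picard (2.27.1) together with multi-mapping, mitochondrial and ribosomal RNA reads, counted exonic reads with featureCounts (2.0.2) and normalized with DESeq2 (1.30.1). The values deposited by the authors are a score: normalized counts as whole numbers, from which raw counts were not recovered. Whether anything beyond division by a library factor was done to them is not given in the sources used here. Because they are not raw counts, count models were not used.

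Genes with a mean of at least 5 over the 4 libraries were fitted with limma (3.58.1, R 4.3.3; lmFit, eBayes with a variance trend) on log2(value + 1), mutant minus wild type, without a block, with Benjamini-Hochberg adjustment and a threshold of 0.05. A fold change on this scale understates changes of low genes. A trial of limma on simulated data does not show that the p-values here are right. They are too small for the reason given above. Shares of the library and of gene pairs were compared by exact two-sided permutation of the 4 libraries. Counts between genes were not compared per length, and coding lengths and start-site sequences were not analysed here.

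Members and gene lists were chosen with earlier results of these data known. The genes named were the 5 members of highest and lowest mean, the 5 of largest and smallest fold change, stalk genes and *rpsa*, related pairs, members on the chromosome of *egr3*, the 3 with the largest difference within a genotype, and *egr3*. A few genes are counted but not reported here by name or drawn. Other members and all genes of other lists were named after their values were seen. Alternatives were pseudocounts of 0.5 and 10, no filter, a mean of at least 20, no variance trend, robust eBayes, 4 rescalings (equal totals, equal totals of other genes, median of ratios and quantile), a share of the total without the 50 genes of highest mean, a replicate block, and leaving out libraries. Duplicate removal and the unknown raw depth limit the precision of every count.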

Additional observations from a re-analysis of the deposited data

How the results depend on the processing

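No member was called at an adjusted p under 0.05 under any other setting but the crossed pairing, the replicate block included (0 members). With the replicate block, 1 member was higher at an unadjusted p under 0.05 in place of 7. All genes passing it in either direction were then 858 in place of 3772. The replicate numbers carry no stated pairing and their deviations were opposite. With the numbers crossed, a fit chosen after seeing the data, 18 members were called, beside 12169 of all 17501 genes. In that fit 21 members were higher at an unadjusted p under 0.05, beside 12503 of all genes in either direction. Because the deviations mirror each other, the crossed block takes up nearly all of the residual, so many calls were set in advance and nothing is concluded from them. At an unadjusted p under 0.05, 11 members were higher with equal totals, with equal totals of other genes and with the median of ratios, and 1 was lower with the median of ratios. Leaving out 1 library gave 1 to 3 higher and 0 to 1 lower. Both mutants were above both wild types for 37 members with either scaling to equal totals and for 24 to 61 when 1 library was left out. Both were below for 7 with quantile normalization and for 13 to 36 when 1 library was left out. The share of all genes was not counted in these settings, and non-overlap is met more easily with 1 pool in a genotype. These counts of non-overlap therefore do not set the members apart from other genes. The members' median log2 fold change ran from -0.0058 to 0.116 and the difference in library share from 0.00977 to 0.0596 percentage points when libraries were left out, the highest of each without replicate 2. The cause of these shifts was not tested. Under these scalings the median of all genes was at most 0.0183, against -0.0007.

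The sign of 7 small log2 fold changes turned. With quantile normalization *rpl4* was 0.021, *rpl37* on chromosome 2 -0.0029 and *rpl6* 0.016. With equal totals *rplp2* was 0.0171 and *rpl6* 0.0110, with equal totals of other genes they were 0.0175 and 0.0114, and with the median of ratios *rplp2* was 0.00055. When libraries were left out, *rpl4* ran from -0.054 to 0.0074, *rpl37* on chromosome 2 from -0.066 to 0.160, *rplp2* from -0.062 to 0.090, *rpl5b* from -0.069 to 0.153, *rpl7* from -0.096 to 0.00098, *rpl10a* from -0.022 to 0.076 and *rpl6* from -0.049 to 0.045. Level per coding base and start-site sequence were not run.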
